A study of Homo sapiens with 6 samples.

Results

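The 40 nuclear genes described here encode the subunits of respiratory complexes II, III and IV, of ATP synthase (complex V), and cytochrome c. They were chosen by name from the textbook makeup of the complexes, and 4 belong to complex II, 9 to complex III, 11 to complex IV and 15 to complex V, with 1 gene for cytochrome c. Translational efficiency was listed for 35 of them among 8121 genes, and ribosome occupancy for 39 among 9570 transcripts. Both tables come from HEK293 cells, a human embryonic kidney line, treated with a control siRNA, and there was no second condition. Each of 3 lysates gave a library of ribosome-protected fragments (RPFs), the pieces of mRNA that a ribosome shields from RNase I, and a library of total RNA, 6 libraries in all. Cycloheximide, which halts elongating ribosomes, was given to the cells shortly before lysis and was also in the lysis buffer. The labels give no more on the culture, and no marker of the cell line was tested.

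Complexes II to IV pass electrons from succinate and ubiquinol to oxygen, and complexes III and IV pump protons across the inner mitochondrial membrane. Cytochrome c carries electrons between complexes III and IV, and complex V uses the proton gradient to make ATP. The subunits described here are made on cytosolic ribosomes, many with a presequence that is removed after import, and they assemble with a few subunits made inside the mitochondrion. The mitochondrially encoded subunits were not analysed here.

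Translational efficiency, the deposited value of RPFs relative to total RNA of a lysate, taken here as a linear ratio, was above the median of all genes for 34 of the 35 subunits and below it for 1, ATP5G1, in limma at an FDR of 0.05. Of all 8121 genes, 44.7% were called higher and 44.6% lower. Most subunits have short CDSs, and among the 1130 genes with a CDS of 200 codons or fewer 64.3% were called higher. The median efficiency of the subunits was 1.29, with medians of 1.28, 1.21 and 1.39 in the 3 replicates, against 0.385 for all genes and 0.727 for the genes with short CDSs. By complex, the median was 0.901 for complex II (4 subunits), 1.19 for complex III (6), 1.44 for complex IV (10) and 1.51 for complex V (14). No subunit missed the threshold, and the means spanned 0.236 to 36.5. In the order of the means, the ranges over the 3 replicates overlapped in 22 of 34 pairs of neighbours. UQCRC2, UQCR10, UQCR11, COX7C and ATP5E had no efficiency value, and ATP5C1 had no occupancy.

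**Figure D1:**
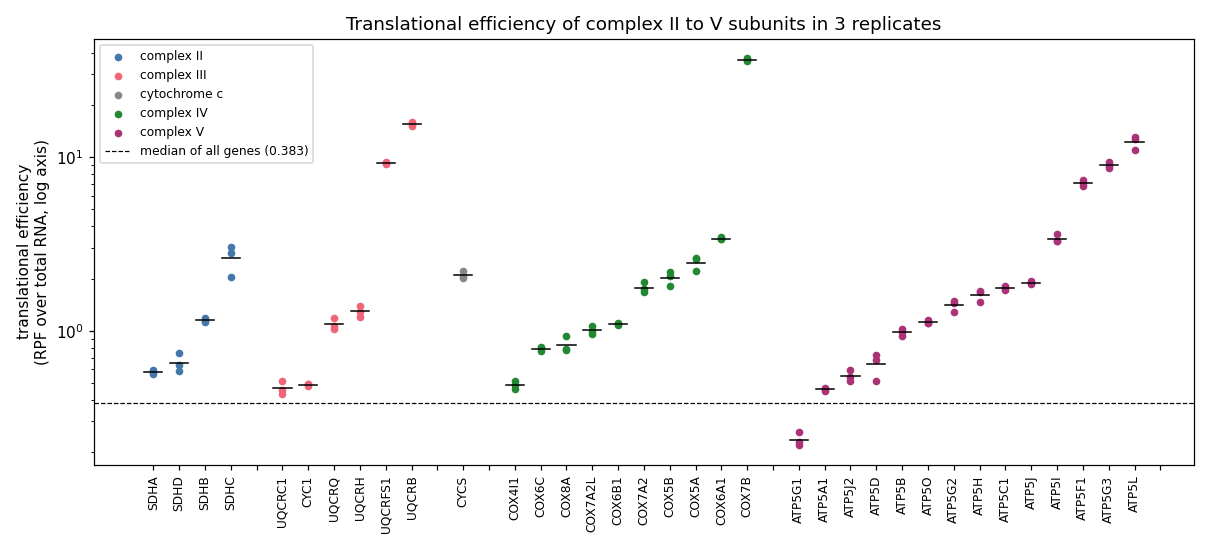
Translational efficiency (log axis) of 35 subunits, grouped by complex. Points are the 3 replicates, black bars their means and the dashed line the median of all genes (0.383 over all values), below which only ATP5G1 lies.

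Complex II oxidises succinate, with SDHA carrying the flavin and SDHB the iron-sulfur clusters, while SDHC and SDHD anchor them in the membrane. SDHA was lowest, with efficiencies of 0.581, 0.565 and 0.594 in replicates 1 to 3. SDHB stood at 1.13, 1.18 and 1.14, above every value of SDHA. SDHC was the highest, at 2.05, 2.81 and 3.03, and had the largest spread between replicates of all 35 subunits, an SD of 0.298 on the log2 scale. SDHD, the other anchor, gave 0.741, 0.633 and 0.586, so its range overlapped that of SDHA. SDHD had the third largest spread (log2 SD 0.170).

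In complex III, UQCRC1, a core subunit that faces the matrix, was lowest with 0.434, 0.512 and 0.457, which was 0.28 ± 0.06 (SE) above the median on the log2 scale (limma, adjusted p = 0.01). CYC1, the cytochrome c1 that hands electrons to cytochrome c, lay close by at 0.480, 0.490 and 0.496. UQCRFS1, the Rieske iron-sulfur protein, stood far above both, with efficiencies of 9.44, 9.22 and 9.15. The highest value of the complex was that of the small subunit UQCRB, at 15.6, 15.1 and 16.01. UQCRH, the acidic hinge protein, had a mean of 1.29 and UQCRQ one of 1.09. UQCRHL, a near-identical copy of UQCRH, was listed at a mean of 36.7, and how the counting divided reads between these genes was not tested. Cytochrome c itself, CYCS, had 2.07, 2.02 and 2.20, higher than its partner CYC1 in every replicate.

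Complex IV, which reduces oxygen, ranged most widely. COX4I1, a subunit with a role in regulation, was lowest at 0.462, 0.510 and 0.484. COX5A reached 2.22, 2.58 and 2.61. COX7B, a small subunit needed for assembly, was the highest of all 35 at 37.2, 35.9 and 36.3, above 99.7% of all genes and 6.54 ± 0.05 (SE) above the median on the log2 scale (limma, adjusted p = 7.59e-07). The other 7 subunits had means between 0.788 for COX6C and 3.40 for COX6A1, with COX5B at 2.02, COX6B1 at 1.097 and COX8A at 0.828. COX7A2 and COX7A2L, which are alike in sequence, had efficiencies of 1.66, 1.74 and 1.92 and of 1.07, 1.00 and 0.952. COX7A2L, which is known for its place between complexes III and IV, was thus below COX7A2 without overlap, by 0.81 ± 0.19 (SD of the replicate differences, n = 3) on the log2 scale (exact two-sided permutation test, p = 0.1, adjusted p = 0.1 over 4 pairs). With 3 replicates against 3 no smaller p is possible than 0.1.

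Complex V has a catalytic head in the matrix and a rotor in the membrane. In the head, ATP5A1 (alpha) had 0.451, 0.461 and 0.469, and ATP5B (beta), which carries the catalytic sites, 0.928, 1.02 and 0.987. ATP5C1 (gamma), the central shaft, gave 1.75, 1.82 and 1.73. These ranges did not overlap. ATP5D (delta), with 0.515, 0.681 and 0.725, had the second largest spread between replicates (log2 SD 0.259), with replicate 1 low. ATP5O, which ties the head to the stator, had a mean of 1.12. Of the stator and membrane subunits outside the c ring, ATP5L was highest at 10.997, 13.01 and 12.7, followed by ATP5F1 with a mean of 7.10. ATP5I (3.40), ATP5J (1.89), ATP5H (1.61) and ATP5J2 (0.550) were lower.

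The c subunit of the rotor ring is encoded by 3 genes, and these spread over most of the range of complex V. ATP5G1 had efficiencies of 0.218, 0.260 and 0.229 and lay 0.68 ± 0.07 (SE) below the median on the log2 scale (limma, log2 difference -0.68, adjusted p = 0.000294). ATP5G2 had 1.49, 1.28 and 1.44, and ATP5G3 8.88, 8.67 and 9.34. The replicates of the 3 genes did not overlap. On the log2 scale, ATP5G2 exceeded ATP5G1 by 2.53 ± 0.24 (SD, n = 3), and ATP5G3 exceeded ATP5G2 by 2.67 ± 0.09, with an exact two-sided permutation p = 0.1 for each, the smallest possible. The span from ATP5G1 to ATP5G3 was 36.6-fold on the scale of value plus 0.01 (5.19 ± 0.16 on the log2 scale, exact permutation p = 0.1).

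Many subunits share CDS sequence with other places in the genome. Whether this affected how reads were assigned was not tested, and the authors aligned RPFs to the transcriptome. The planned measure was the share of CDS 30-mers in a transcript of another gene. It was under 5% for 11 of the 35, with a median efficiency of 1.01. The share in the genome, given next, was chosen after the values were seen. The share of a subunit's CDS 30-mers found at another place in GRCh37, on either strand, was under 5% for 13 of the 35 and 5% or more for 22. All of the 13 were called higher, with means from 0.468 (UQCRC1) to 3.40 (ATP5I) and a median of 1.01. Among the 22, 21 were called higher and the means ran from 0.236 to 36.5, with a median of 1.83. All 6 subunits with a mean of 5 or more (COX7B, UQCRB, ATP5L, UQCRFS1, ATP5G3 and ATP5F1) were among the 22. The share was 74.9% for UQCRFS1, over 3 places, but 20.1% for COX7B and 7% for ATP5G3. Over the 35 subunits, which share their libraries, efficiency and this share had a Spearman coefficient of 0.337. The part of shared sequence in the high values was not tested. For UQCR11, COX8A and ATP5O, 30-mers were shared with an annotated gene while under 5% lay at another place in the genome.

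Other genes of oxidative phosphorylation were listed for comparison. Of 33 subunits of complex I, the NADH dehydrogenase, 25 were called higher and 5 lower, with a median of 0.978. Of 36 assembly factors of the complexes, 22 were higher and 11 lower, with a median of 0.854. NDUFA4, now counted with complex IV, had 35.1, 36.5 and 36.5, close to COX7B, and C14orf2, a small ATP synthase subunit, had a mean of 0.911.

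The occupancy table gives another view of the same mRNAs. It lists RPF counts, normalized for library size and divided by the abundance of the mRNA (TPM), for each in-frame codon, with the replicates combined by the authors, so an occupancy has no SD. The median over 39 subunits of the mean CDS occupancy was 0.0810, against 0.0450 for all transcripts and 0.0730 for those of 200 codons or fewer. Of the 39 subunits, 32 were above the median of all transcripts. The same held for 29 of 35 complex I subunits, 24 of 36 assembly factors and 963 of 1382 transcripts of 200 codons or fewer. UQCRB was highest (1.05), followed by SDHC (0.843) and CYCS (0.650), and CYC1 was lowest (0.0148). Some subunits ranked differently here than by efficiency. COX7B, first by efficiency, had an occupancy of 0.139, and UQCRFS1, with a mean efficiency of 9.27, one of 0.0571. COX6C, with an efficiency of 0.788, had an occupancy of 0.310. Over the 34 subunits with both measures the Spearman coefficient was 0.515, and over all 6912 genes with both it was 0.688, as a description across genes of the same libraries. For the c subunit genes the order was the same in both measures, at 0.0310, 0.0551 and 0.316 for ATP5G1, ATP5G2 and ATP5G3.

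**Figure D2:**
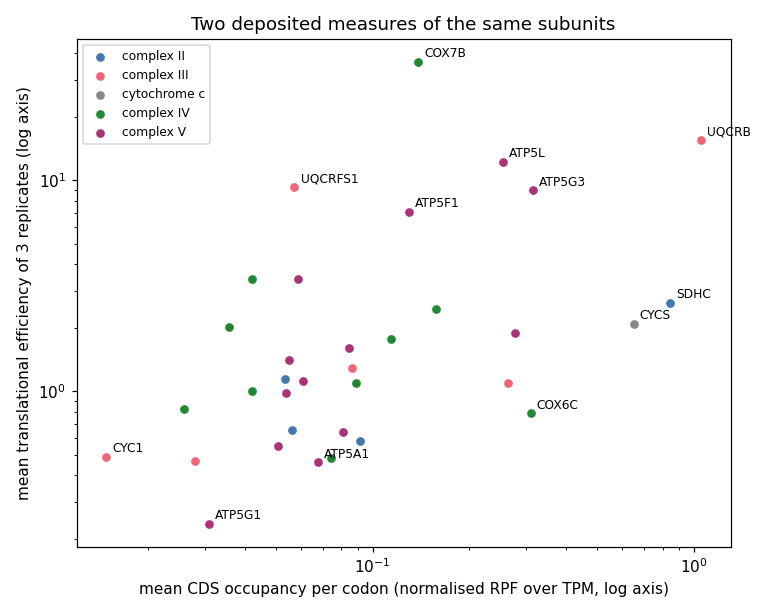
Mean translational efficiency of 3 replicates against mean CDS occupancy per codon, both on log axes, for 34 subunits coloured by complex. UQCRB is high on both, while COX7B and UQCRFS1 are high in efficiency at occupancies of 0.139 and 0.0571.

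For 38 of the 39 subunits (not ATP5I) the occupancy values could be resolved into whole reads, each scaled by library size and TPM. The subunits held between 2944 (COX7A2L) and 85738 (ATP5B) CDS reads, and 784487 reads with the UTRs. Per codon, which makes genes of unlike length comparable, they held from 17.0 (CYC1) to 431 (ATP5E) reads. This quantity rises with both the abundance of an mRNA and its load of ribosomes. All 4 complex II subunits were between 29.2 (SDHA) and 70.9 (SDHB). In complex III the large subunits UQCRC1 and UQCRC2 had 31.5 and 42.4 and UQCRFS1 38.8, and the small subunits ranged from 65.9 (UQCR10) through 111 (UQCR11), 128 (UQCRQ) and 312 (UQCRB) to 350 (UQCRH). Cytochrome c had 372 reads per codon, against 17.0 for CYC1. Of the CDS 30-mers, 69.6% lie elsewhere in GRCh37 for CYCS and 0% for CYC1. Whether shared sequence affected these reads was not tested.

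In complex IV the median was 145 reads per codon, from 25.6 for COX7A2L to 320 for COX7C. In the head of ATP synthase, alpha (ATP5A1) had 136 and beta (ATP5B) 162, although their efficiencies differed by more. The delta subunit ATP5D had 22.1 and the epsilon subunit ATP5E 431, and each is present once in the enzyme. UQCRH shows how the measures part. It had more reads per codon than UQCRB, yet an occupancy of 0.0861 against 1.05. The unit divides by the TPM of the mRNA, so 1 read counts for less where the TPM is higher. Elsewhere in GRCh37 lie 71.3% of the CDS 30-mers of UQCRH and 39.7% of those of UQCRB. Whether this affected their TPM was not tested.

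**Figure D3:**
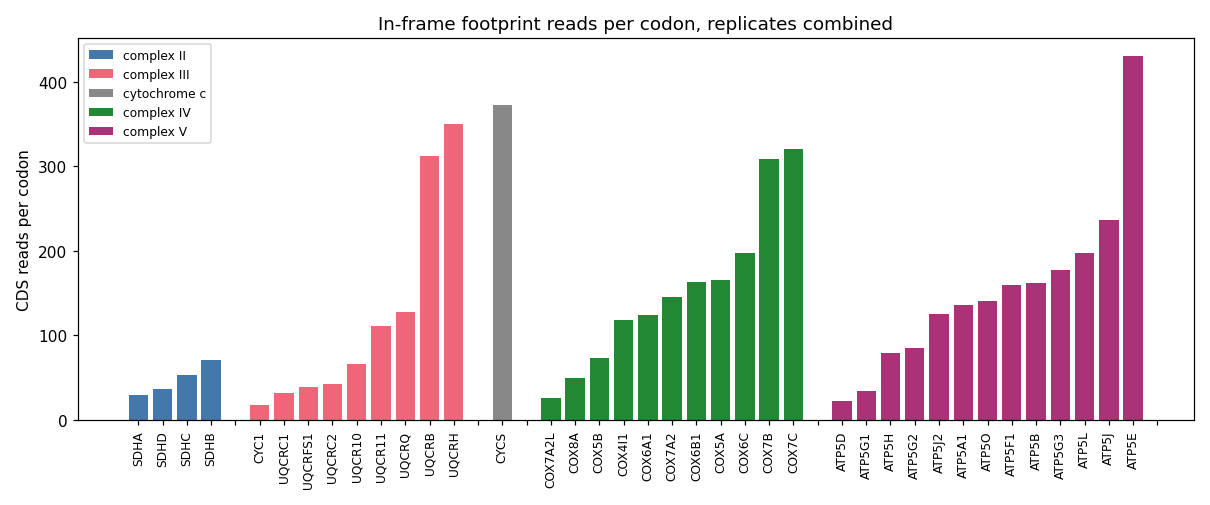
In-frame CDS reads per codon for 38 subunits, replicates combined, grouped by complex. ATP5E (431) and CYCS (372) are highest and CYC1 (17.0) lowest, and complex II stays at or below 70.9.

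The proteins of ATP5G1, ATP5G2 and ATP5G3 are the same over their last 77 residues, translated from the GENCODE CDSs, and differ in the presequence ahead of them. Over that stretch the bases of ATP5G1 and ATP5G2 were 88.3% identical and those of the other pairs 80.1%, and no pair shared a 30-mer. ATP5G1 held 35.97 reads per codon there, ATP5G2 97.9 and ATP5G3 150. Of their sum, ATP5G3 thus gave 52.8%, ATP5G2 34.5% and ATP5G1 12.7%. In the presequence the densities were 32.8, 145 and 212 reads per codon. ATP5G2 and ATP5G3 were therefore denser ahead of the shared stretch than within it, and ATP5G1 slightly less dense. The codon profiles along the 77 codons had Spearman coefficients of 0.589 (ATP5G1 and ATP5G2), 0.361 (ATP5G1 and ATP5G3) and 0.158 (ATP5G2 and ATP5G3), over codons of the same libraries.

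**Figure D4:**
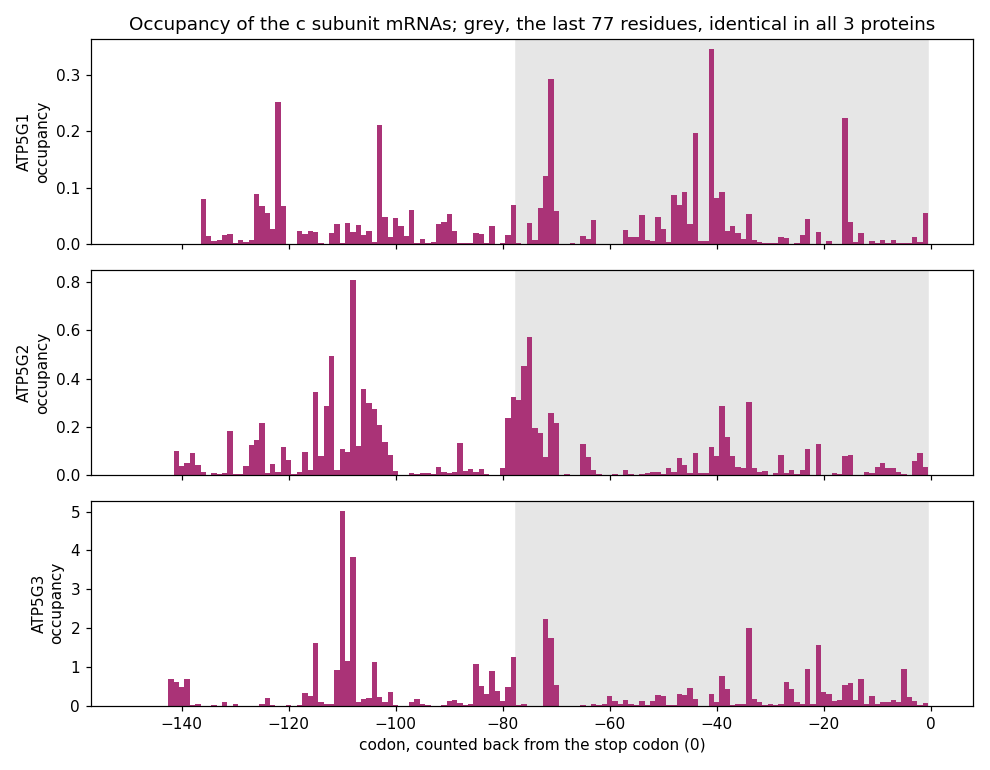
Occupancy per codon of ATP5G1, ATP5G2 and ATP5G3, aligned at the stop codon, each on its own axis. The grey area marks the last 77 residues, which are the same in the 3 proteins, and the highest codons of ATP5G2 and ATP5G3 lie ahead of it.

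Occupancy was not split evenly at the midpoint of the CDS in every subunit. The median share ahead of the midpoint was 47.4%, against 50.6% for all transcripts and 47.0% for those of 200 codons or fewer. ATP5J, a stator subunit, had the largest share of the 39 there (75.8%), and ATP5D the smallest (14.98%), with COX7C (16.2%), COX6A1 (19.8%) and UQCR11 (21.2%) close to it. By complex the median share was 41.4% for complex IV and 48.3% for complex V. Codons with no footprint made up a median of 9.17% of a subunit's CDS, against 25.9% for the short CDSs of all transcripts. The median was 15.6% for complex I subunits and 24.9% for assembly factors. This share depends on the number of reads of an mRNA, which was not matched between the lists.

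Footprints were uneven from codon to codon as well. The highest codon held a median of 8.56% of the CDS occupancy of a subunit, against 9.88% for all transcripts of 200 codons or fewer. The 5 subunits with the highest share in 1 codon are printed with that codon in capitals and up to 4 codons on each side, 5′ to 3′, from GENCODE 44 on GRCh37. In the order printed, their CDSs have 57, 64, 104, 63 and 70 codons, against a median of 121 for the subunits. The share was not adjusted for CDS length. The position is the codon that the authors' offset of 13 nt assigns.
UQCR11: ctggactgggtaCCTtacatcaatggc
COX7C: tcagtggaaaacAAGtggtcgttacta
ATP5L: aatagtgctcagACTggtagcttcaaa
UQCR10: gatcaaggcgcgGACgctatctacgac
COX8A: ATGtccgtcctgacg

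These lie in the coding exons of UQCR11 (chr19:1597168-1605472, minus strand), COX7C (chr5:85913745-85916779, plus), ATP5L (chr11:118272061-118303993, plus), UQCR10 (chr22:30163358-30166402, plus) and COX8A (chr11:63742092-63744015, plus), where the coordinates are those of the gene. Codon 46 of UQCR11, a small subunit of complex III, held 26.4% of the CDS occupancy. As reads, this was 25.7% (95% Clopper-Pearson interval 24.6 to 26.8), and 23.1 to 32.5% over the 3 read classes that stand for the replicates and were not assigned to them. Codon 34 of COX7C held 18.0%, codon 62 of ATP5L 17.0% and codon 41 of UQCR10 16.6%, each of them at 14.9% or more of the reads in every class. In COX8A the highest codon was the start codon, with 14.7% and a range of 11.96 to 20.6% over the classes. The printed codons differ from each other. The start codon was also the highest in SDHC, UQCRC2 and COX5B, so in 4 of 39 subunits, against 2.43% of all transcripts and 3.84% of those of 200 codons or fewer. It was the highest in 2 of 36 assembly factors (5.56%) and in 0 of 35 complex I subunits.

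In 3 of the 39 subunits, COX7A2, ATP5G2 and COX5A, the first 20% of the CDS held under 1% of its occupancy, which was true of 1.37% of all transcripts and of 3.62% of those of 200 codons or fewer. The same held for 2 of 35 complex I subunits (5.71%) and 3 of 36 assembly factors (8.33%), against 7.69% of the subunits described here. In COX5A the first 37 of 151 codons held under 1%, and its onset codon was not examined. In COX7A2 and ATP5G2 an onset was placed at the first codon at or above the mean of the CDS. In COX7A2 this codon is an ATG. For ATP5G2 no sequence of the listed CDS of 199 codons was matched. The ATP5G2 bases are the first of a GENCODE CDS chosen for the length left from codon 58. Such CDSs were kept only if they began with ATG, so the ATG of ATP5G2 was fixed in advance. The onset is printed in capitals, with 4 codons on each side for COX7A2 and 8 after it for ATP5G2.
COX7A2: gtaacagccaagATGctgcggaatctg
ATP5G2: ATGttcgcctgctccaagtttgtctcc

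In COX7A2 (chr6:75947391-75960039, minus strand) the onset is codon 33 of 116. The 32 codons ahead of it held 125 of 16866 CDS reads, 0.741% (95% Clopper-Pearson interval 0.617 to 0.882). The mean occupancy was 0.00312 ahead of the ATG and 0.157 from it. Of the codons ahead of it, codon 25 was highest at 0.0630. In ATP5G2 (chr12:54026510-54071192, minus strand) the onset is codon 58 of 199, and 5 of 16826 reads (0.0297%) lay ahead of it. GENCODE 44 lists a CDS of 84 codons for COX7A2 in 1 transcript and one of 142 codons for ATP5G2 in 4 transcripts, which are the lengths that remain from these codons to the stop. Because the 57 codons ahead are counted in the mean, the CDS occupancy of ATP5G2 was 0.0551 over the listed CDS and 0.0772 from codon 58.

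**Figure D5:**
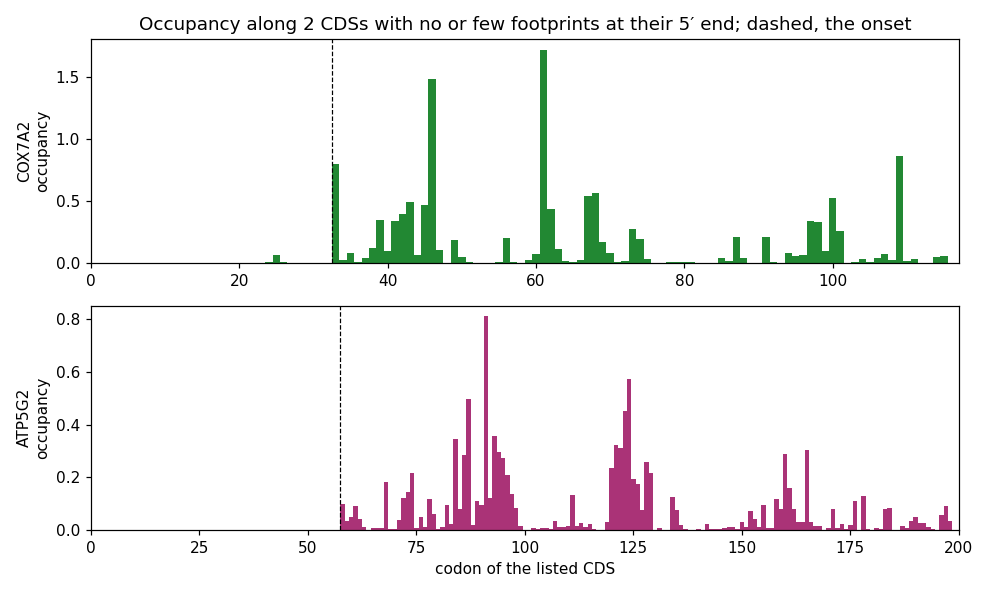
Occupancy per codon along the listed CDSs of COX7A2 (116 codons) and ATP5G2 (199 codons). The dashed lines mark codons 33 and 58, ahead of which 0.741% and 0.0297% of the CDS reads lie.

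Outside the CDS, subunits held few in-frame footprints. The median share in the 5′UTR was 0.151% of the occupancy, against 0.365% for all transcripts and 0.548% for those of 200 codons or fewer. Each UTR share is a sum over the listed UTR and was not corrected for UTR length. COX8A was highest at 7.999% (305 reads, 6.72 to 8.79% over the read classes), followed by UQCRH at 5.13% (1689 reads, 4.18 to 5.73%) and ATP5G1 at 3.18% (161 reads, 2.22 to 4.38%). In UQCRH the last listed position of the 5′UTR held 56.5% of the 5′UTR occupancy. A single position also held 56.6% of it in ATP5G1, 4 codons ahead of the start codon, and 50.4% in COX8A, 6 codons ahead. ATP5G1, the subunit with the lowest efficiency, was among the 3 with the largest 5′UTR share, while UQCRH, also among them, had an efficiency of 1.29. For ATP5B, 0 of 85742 reads lay in the 5′UTR.

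In the 3′UTR the median share was 0.0430%, above that of all transcripts (0.0165%) and below that of transcripts of 200 codons or fewer (0.0838%). ATP5G3 stood apart at 19.9% (5873 reads, 13.4 to 26.8% over the classes), and 99.5% of this occupancy lay in a single codon position, number 571 of the listed 3′UTR. UQCR10 followed at 3.78% (167 reads) and UQCR11 at 0.441% (29 reads). The source of the ATP5G3 position was not tested.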

How the data were processed

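RPF and total RNA libraries of 3 HEK293 lysates were analysed. The authors trimmed reads (cutadapt 1.16 in the submitters' processing notes), removed PCR duplicates with cd-hit-dup, left out rRNA and tRNA reads and aligned RPFs to the hg19 transcriptome (Bowtie 1.1.2). Total RNA was aligned with Hisat2, while the notes name TopHat2 2.1.1, and counted with HTSeq 0.9.1. Translational efficiency was deposited by the authors as 1 value per gene and replicate, whose formula was not found in the sources. The authors' value was taken as a linear ratio, since every value is above 0 and the names of the columns give no log. Occupancy, as deposited, is an RPF count per in-frame codon, scaled to library size and to the TPM of the mRNA, and pooled over the replicates. Lists of 31 transcripts that were broken over lines were rejoined. The files give no depth for a library, and the mapped RPF totals in the study's methods were not used here.

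Efficiencies were taken to log2 after adding 0.01 and compared with the median over the whole table by limma 3.58.1 (R 4.3.3), with the FDR (Benjamini-Hochberg) held at 0.05 over 8121 genes. No low values were filtered. RPF and total RNA of a replicate number come from 1 lysate, so the pairing is part of the ratio. Whether the lysates came from separate cultures is not stated, and p-values then measure the spread between these samples, which may be technical. Like proteins were compared with exact permutation tests. Whole reads were recovered from the steps between occupancy values, as sums of 3 read classes, which were not assigned to replicates. The scripts were tested on simulated data. When reads were redrawn for the subunits, the steps were not found for every one of them, and where they were found every read was exact. Intervals are 95% Clopper-Pearson intervals and cover counting error only. CDSs and loci are from GENCODE 44 on GRCh37, the build of hg19, matched by symbol and CDS length, except for ATP5G2 (a CDS of 142 codons) and ATP5C1 (the canonical CDS). Software was Python 3.11.15 with scipy 1.17.1, pandas 2.3.3 and numpy 2.4.6.

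The subunits and lists were chosen with earlier results of these data known. Values by replicate are given for the highest and lowest subunit of each complex, those with like proteins, catalytic or core subunits, and the 3 with the largest log2 SD between replicates. For occupancy the 5 highest shares in 1 codon and the 3 highest in each UTR are given. The counts of start codon peaks and of empty CDS starts, and the COX7A2 and ATP5G2 sequences, were chosen after the values were seen.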

Additional observations from a re-analysis of the deposited data

How the results depend on the processing

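The calls of the subunits were the same under all 7 alternatives (pseudocount 0.1, leaving out each replicate, the replicate block, a filter on a mean of at least 0.05 and a limma trend), with 34 higher and 1 lower in each, and the same direction and side of the threshold in all 245 combinations of subunit and alternative. With the replicate block, in which the median of each replicate was removed, 3639 genes were called higher and 3626 lower, against 3631 and 3618 without it. The median efficiency of the subunits ranged from 1.24 to 1.34 when 1 replicate was left out, and was 1.01 for the 11 subunits with under 5% of their CDS 30-mers in a transcript of another gene. It was also 1.01 for the 13 with under 5% elsewhere in the genome, an alternative chosen after seeing the data. The median CDS occupancy was 0.0810 and became 0.0777 without the first 15 and last 5 codons, 0.0696 without the highest codon, 0.0236 as the median over codons and 0.0584 for the subunits with little shared sequence. The median share of the highest codon was 10.4% without the first 15 and last 5 codons, against 8.56%. Leaving out the highest codon lowers the mean of every CDS by construction. The cause of the other shifts was not tested, and values of all transcripts under these settings are not given here. Occupancy has no replicate error. Read counts behind the occupancies are from 2944 to 85738 per CDS, and no read counts behind the efficiencies were recovered.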
